A study of Saccharomyces cerevisiae with 7 samples.

Results

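The autophagy-related genes of S. cerevisiae, named ATG with a number, were followed on arrays of yeast grown in simulated asbestos mine drainage and in control media. The members were the genes whose symbol in the array annotation begins with ATG followed by a number, with 1 probeset a gene (the one brightest on average, where there are several) and none whose identifier marks shared probes. This gave 34 genes, none with a second probeset, among 5498 S. cerevisiae probesets of 5449 genes. All 7 cultures were of strain NRRL Y-12632, which carries the cir+ genotype, grown separately from 1 inoculum that had itself grown in control media, and harvested after 24 h. The 4 mine drainage cultures grew in YPD, a rich medium of yeast extract, peptone and glucose, made with filtered water that had stood on tailings of an asbestos mine through freezing and thawing. The 3 control cultures grew in YPD made with deionized water, called distilled in a label. The media differed in several ways, among them a higher pH and far more magnesium in mine drainage, so the agent behind a difference cannot be told apart. After 24 h the cells had also been through growth and nutrient use, and the density of the cultures at harvest was not analysed here.

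Autophagy is the route by which a cell encloses its own cytoplasm or organelles in a double membrane, the autophagosome, and delivers them to the vacuole for breakdown. In yeast it is held down by the kinase complex TORC1 in rich media and set off by starvation, through the Atg1 kinase complex, vesicles that carry Atg9, a phosphatidylinositol 3-kinase and the coupling of the small protein Atg8 to a membrane lipid. Part of the same machinery also runs in growing cells as the cytoplasm-to-vacuole targeting (Cvt) pathway, which carries the aminopeptidase Ape1 to the vacuole. Cargo receptors choose mitochondria, peroxisomes, endoplasmic reticulum or enzymes, and a lipase and permeases of the vacuole finish the process.

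Values are log2 signals made by the authors with the Robust Multichip Average (RMA), and a log2 difference of 1 is a doubling. Mine drainage minus control was tested with limma, a linear model that shares the spread across probesets, two-sided and with Benjamini-Hochberg adjustment over the 5498 probesets. The standard error (SE) is that of limma, and a gene is said to have risen or fallen at an adjusted p under 0.05. Values per array are given in the order of replicates 1 to 4 of mine drainage and 1 to 3 of control, and an array reports a share of the RNA, so fewer cells with a transcript and less of it per cell cannot be told apart. Of the 34 ATG genes 5 rose, 9 fell and 20 did not pass, so 41.2% were called, where 31.6% of all S. cerevisiae probesets were. The 5 that rose are 14.7% of the members against a background of 14.5%, and the 9 that fell are 26.5% against 17.1%. The share that rose was near that of all probesets, and the share that fell was above it, a gap that was not tested. A further quantile normalization gave 7 higher and 6 lower, and leaving out control replicate 3 gave 5 higher and 4 lower. By the methods' gene-by-gene test ATG19 rose and ATG23, ATG9 and ATG13 fell, and without control replicate 2 limma called ATG19 and ATG33 higher and ATG23 and ATG5 lower. The median log2 difference of the 34 genes was -0.21, beside -0.03 over all probesets, and it lay between -0.25 and -0.13 under every alternative tried. ATG19, ATG33, ATG22, ATG41 and ATG29 rose, and ATG23, ATG5, ATG14, ATG13, ATG4, ATG9, ATG10, ATG31 and ATG11 fell. The 2 groups of arrays did not overlap for 16 members, 6 higher and 10 lower in mine drainage, where 38.2% of all probesets did not, 17.7% higher and 20.5% lower.

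**Figure D1:**
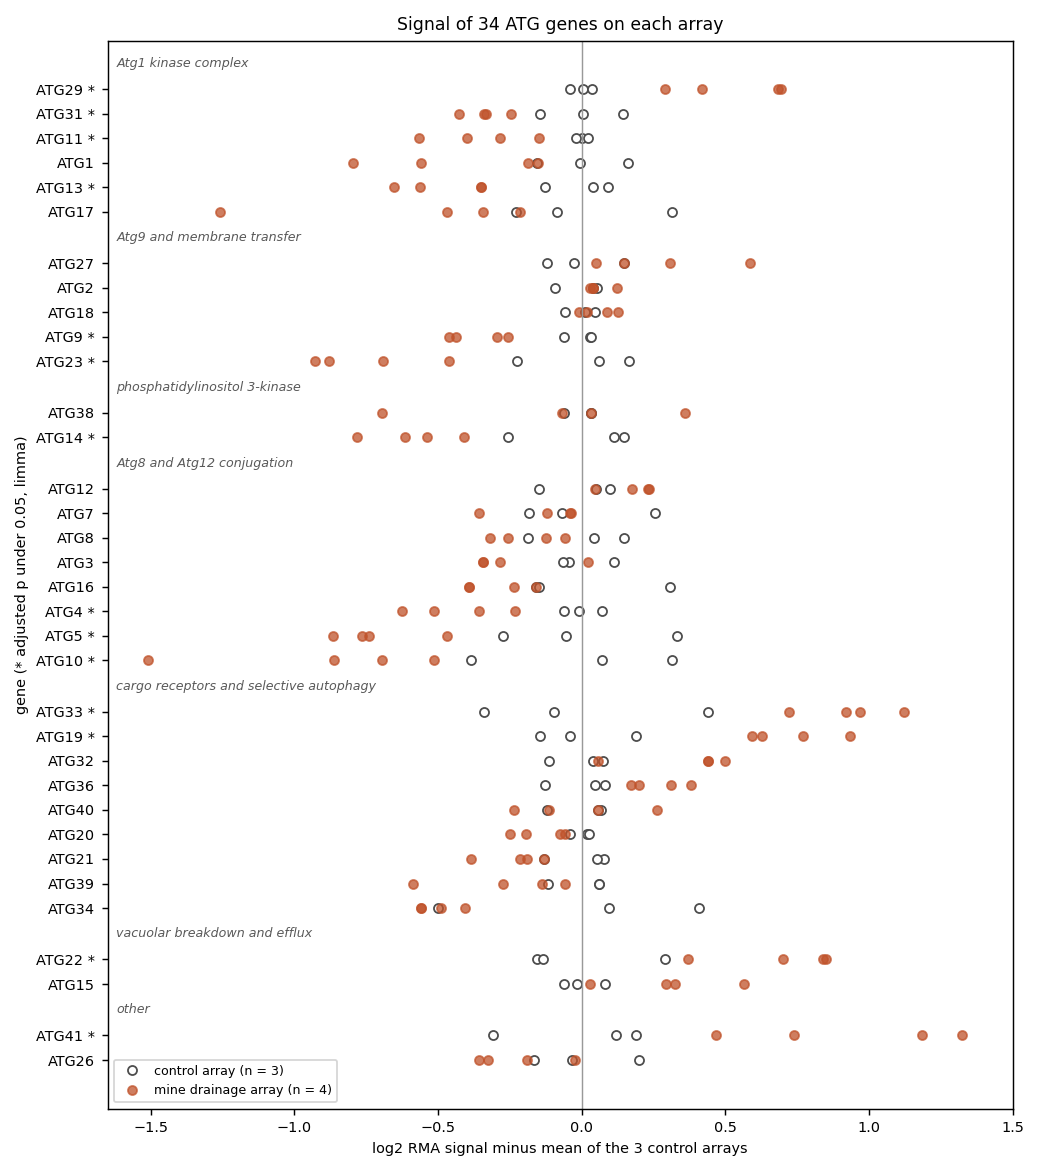
Log2 RMA signal of the 34 ATG genes on each array minus the mean of the 3 control arrays, with genes grouped by role. Filled points are the 4 mine drainage arrays, open points the 3 control arrays, and an asterisk marks the 5 genes that rose and the 9 that fell.

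The median over all S. cerevisiae probesets was 7.41 to 7.46 in mine drainage and 7.45 to 7.48 in control. All 34 members lay on every array above 1.52, the 95th percentile of the probesets for another yeast, S. pombe, whose transcripts were not in the cultures. The difference of 3' and 5' probesets of 8 yeast control transcripts, a sign of RNA or labelling quality, was 0.50 to 0.87 in mine drainage and 0.79 to 1.14 in control. With that measure as a covariate 2 ATG genes rose (ATG19 and ATG41) and 1 fell (ATG23), and over all probesets 228 rose and 283 fell in place of 795 and 942. The rRNA probesets had 11.86 to 12.08 in mine drainage and 11.44 to 11.68 in control, and the spiked-in hybridization controls 9.66 to 10.15 and 9.37 to 9.72. Their part in the results was not tested. Control replicate 1 lay nearer to the mine drainage arrays than the other controls did: over the 14 ATG genes called, it stood at a median of 0.374 of the way from the mean of control replicates 2 and 3 to the mean of mine drainage, and toward mine drainage for 13 of them.

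The Atg1 kinase complex, which starts autophagosome formation, had 3 genes lower, 1 higher and 2 that did not pass. Of all probesets 17.1% were lower and 14.5% higher. ATG13, the regulatory subunit that TORC1 phosphorylates, had log2 signals of 7.18, 6.97, 7.18 and 6.88 in mine drainage and 7.40, 7.57 and 7.62 in control. Each mine drainage array lay below each control array, and ATG13 fell by 0.48 on the log2 scale (1.39-fold, SE 0.11, limma adjusted p = 0.0123). ATG31 and ATG29 encode proteins that join Atg17 in the scaffold of the complex, and they went in opposite directions. ATG31 had 5.62, 5.72, 5.63 and 5.53 in mine drainage and 5.82, 5.97 and 6.11 in control, and it fell by 0.34 on the log2 scale (1.26-fold, SE 0.10, limma adjusted p = 0.0314). ATG29 had 6.46, 6.06, 6.45 and 6.19 in mine drainage and 5.77, 5.73 and 5.81 in control, with the control arrays within 0.08 of each other, and it rose by 0.52 on the log2 scale (1.43-fold, SE 0.12, limma adjusted p = 0.0113). Whether the changes of ATG29 and ATG31 differ from each other was not tested. ATG11, the scaffold used in selective autophagy, had 6.15, 6.28, 6.03 and 5.87 in mine drainage and 6.43, 6.41 and 6.45 in control, and it fell by 0.35 on the log2 scale (1.27-fold, SE 0.11, limma adjusted p = 0.0387). ATG1, the kinase itself, had 5.24, 5.47, 5.84 and 5.88 in mine drainage and 5.88, 6.03 and 6.19 in control. Mine drainage replicates 3 and 4 lay close to control replicate 1, the lowest control array, with replicate 4 just above it. The difference of ATG1 was -0.42 (SE 0.16, limma adjusted p = 0.0745). ATG17, the centre of the scaffold, had 5.68, 6.72, 6.47 and 6.59 in mine drainage and 6.71, 6.85 and 7.25 in control, with mine drainage replicate 1 far below the rest, and its difference was -0.57 (SE 0.24, limma adjusted p = 0.0923). The ATG29 call was lost without control replicate 2 (adjusted p = 0.0555), the ATG13 call without control replicate 2 or 3 (up to 0.0601), the ATG31 call without either of these or without mine drainage replicate 3 or 4 (up to 0.123), and the ATG11 call without any 1 of the control arrays or mine drainage replicate 3 or 4 (up to 0.112). Both ATG31 and ATG11 also missed with the trend and robust prior (adjusted p = 0.0537 and 0.0508) and after a further quantile normalization, where ATG31 had -0.21 (adjusted p = 0.129) and ATG11 -0.27 (adjusted p = 0.0874). With the 3' to 5' measure in the model ATG31 also had -0.21 (adjusted p = 0.26), and once a trend with gene length was removed ATG11 had -0.21 (adjusted p = 0.197).

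Among genes of Atg9 traffic and of lipid transfer to the growing membrane, 2 of 5 fell and none rose, beside 17.1% and 14.5% of all probesets. ATG9 encodes a transmembrane protein of the core machinery, carried on vesicles that seed the autophagosome, and Atg23 is needed for its movement. ATG23 had log2 signals of 6.53, 6.06, 6.11 and 6.30 in mine drainage and 6.76, 7.15 and 7.05 in control. The groups were separated by 0.24, between mine drainage replicate 1 and control replicate 1, and ATG23 fell by 0.74 on the log2 scale (1.67-fold, SE 0.14, limma adjusted p = 0.0061). ATG9 had 5.48, 5.44, 5.27 and 5.30 in mine drainage and 5.77, 5.77 and 5.67 in control, again with no overlap, and it fell by 0.36 on the log2 scale (1.29-fold, SE 0.09, limma adjusted p = 0.019). The genes of the proteins that act with Atg9 at the membrane edge did not pass: ATG2, of the lipid transfer protein, differed by 0.06 (SE 0.09, limma adjusted p = 0.641) and ATG18, of a phosphoinositide-binding partner of Atg2, by 0.06 (SE 0.09, limma adjusted p = 0.65). ATG27, another gene of Atg9 traffic, had 6.21, 6.75, 6.47 and 6.31 in mine drainage and 6.31, 6.04 and 6.13 in control, and it differed by 0.27 (SE 0.14, limma adjusted p = 0.153). The ATG23 call held in all 17 alternatives tried, and the ATG9 call was lost without mine drainage replicate 3 or 4 or control replicate 2 (adjusted p of 0.0516 to 0.085), once a trend with gene length was removed (-0.23, adjusted p = 0.091) and after a further quantile normalization (-0.23, adjusted p = 0.0878).

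The phosphatidylinositol 3-kinase makes the lipid that marks the site of autophagosome growth. ATG14 encodes the subunit that directs the kinase to autophagy, and its log2 signals were 6.074, 6.238, 6.444 and 6.315 in mine drainage and 6.598, 7.001 and 6.965 in control. Every mine drainage array was lower than every control array, and ATG14 fell by 0.59 on the log2 scale (1.5-fold, SE 0.13, limma adjusted p = 0.0102). ATG38, of a subunit that links the others, was on a dim probeset, with 4.06, 3.95, 3.33 and 4.38 in mine drainage and 4.06, 3.96 and 4.06 in control, and differed by -0.09 (SE 0.21, limma adjusted p = 0.752), a sign that turned with a further quantile normalization, with array weights and without mine drainage replicate 3. Of the 4 subunit genes with no ATG symbol, 1 fell and none rose, beside 17.1% and 14.5% of all probesets, and their median log2 difference was -0.21. That gene was VPS38, of the subunit that takes the place of Atg14 in the complex for endosomal sorting, with 7.50 ± 0.14 in mine drainage and 8.05 ± 0.27 in control (SD), and it fell by 0.56 on the log2 scale (1.47-fold, SE 0.14, limma adjusted p = 0.0151). VPS34, the catalytic subunit, differed by -0.10 (SE 0.09, limma adjusted p = 0.422) and VPS30, which is also known as ATG6 and enters both complexes, by -0.14 (SE 0.11, limma adjusted p = 0.367). The ATG14 call was lost without control replicate 2 (adjusted p = 0.0566), and that of VPS38 without control replicate 2 or 3 (up to 0.0784).

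In the 2 conjugation systems, 3 of 8 genes fell and none rose, beside 17.1% and 14.5% of all probesets. Atg8 is cut by the protease Atg4, activated by Atg7 and coupled to phosphatidylethanolamine by Atg3, while Atg12 is activated by Atg7, coupled by Atg10 to Atg5, and works as a complex with Atg16. ATG5 had log2 signals of 8.01, 7.74, 7.72 and 7.62 in mine drainage and 8.21, 8.43 and 8.81 in control. The lowest control array was 0.19 above the highest mine drainage array, and ATG5 fell by 0.71 on the log2 scale (1.64-fold, SE 0.15, limma adjusted p = 0.009). ATG10 was the dimmest member, with 2.65, 3.65, 3.46 and 3.30 in mine drainage and 3.77, 4.47 and 4.23 in control, and mine drainage replicate 1 lay lowest. It fell by 0.89 on the log2 scale (1.86-fold, SE 0.24, limma adjusted p = 0.0202). ATG4 had 6.75, 6.87, 6.48 and 6.59 in mine drainage and 7.10, 7.04 and 7.18 in control, and it fell by 0.43 on the log2 scale (1.35-fold, SE 0.11, limma adjusted p = 0.0187). The genes of the small proteins themselves did not pass. ATG8, often used as the sign of induced autophagy since it rises on starvation, had 9.12, 9.19, 8.99 and 8.92 in mine drainage and 9.29, 9.06 and 9.39 in control, so that the groups overlapped, and it differed by -0.19 (SE 0.11, limma adjusted p = 0.221). ATG12 had 6.56, 6.69, 6.75 and 6.74 in mine drainage and 6.36, 6.56 and 6.61 in control and differed by 0.17 (SE 0.10, limma adjusted p = 0.214). The remaining genes, ATG7, ATG3 and ATG16, differed by 0.14, 0.24 and 0.29 toward lower signal (adjusted p = 0.438, 0.14 and 0.115 from limma). The ATG5 call held without any single array, the ATG10 call was lost without control replicate 2 or 3 (adjusted p up to 0.0932) and with the 3' to 5' measure in the model, where its difference shrank to -0.41 (adjusted p = 0.25), and the ATG4 call without either of these or mine drainage replicate 4 (up to 0.0723).

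**Figure D2:**
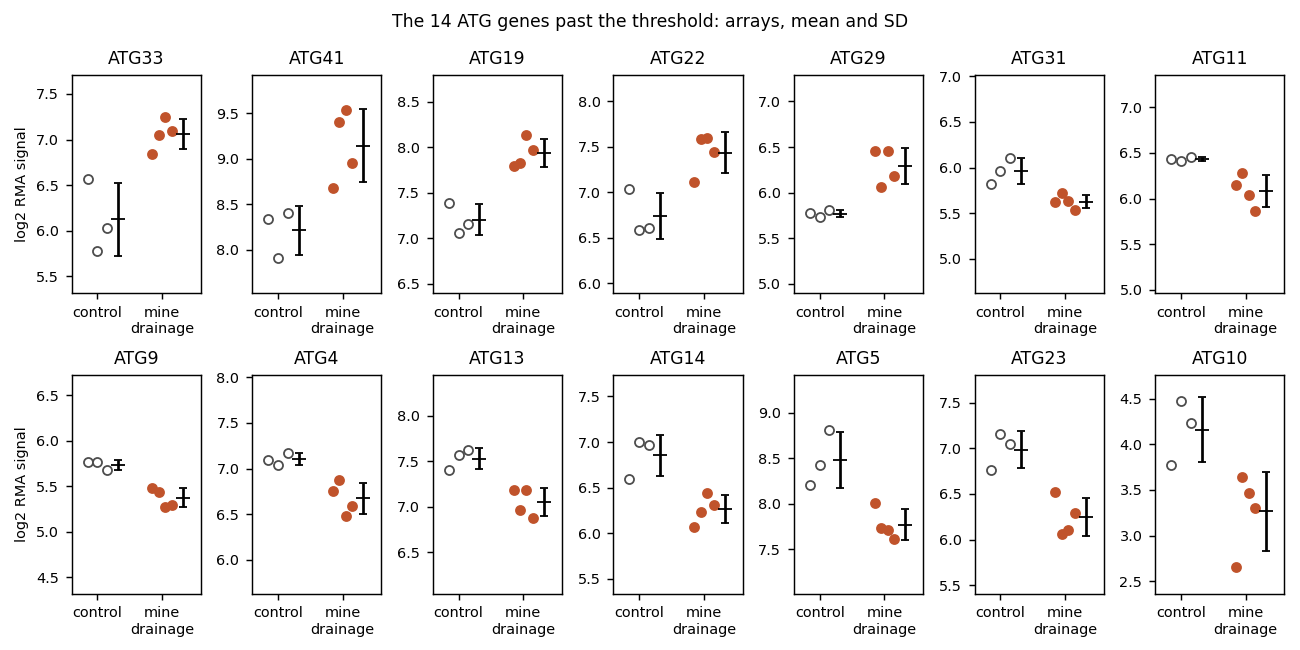
Log2 RMA signal of the 14 ATG genes that rose or fell, with open points for the 3 control arrays, filled points for the 4 mine drainage arrays, and a bar for the mean with its SD. Every panel spans the same range of log2 units, the genes run from ATG33 with the highest difference to ATG10 with the lowest, and in no panel do the groups overlap.

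Among cargo receptors and factors of selective autophagy, 2 of 9 genes rose and none fell, beside 14.5% and 17.1% of all probesets. ATG19 encodes the receptor of the Cvt pathway, which binds the Ape1 complex and the mannosidase Ams1. Its log2 signals were 7.80, 7.83, 8.14 and 7.97 in mine drainage and 7.39, 7.06 and 7.16 in control. The lowest mine drainage array was 0.41 above the highest control array, and ATG19 rose by 0.73 on the log2 scale (1.66-fold, SE 0.12, limma adjusted p = 0.00396). ATG34 is the gene next to ATG19 on the chromosome and encodes a related receptor that carries Ams1 during starvation. It had 5.79, 5.94, 5.86 and 5.79 in mine drainage and 5.85, 6.44 and 6.76 in control, so that control replicate 1 lay among the mine drainage arrays and the other controls above them, and it differed by -0.50 (SE 0.18, limma adjusted p = 0.0609). That value moved with single control arrays: it was -0.75 without control replicate 1 (adjusted p = 0.00353), which passed, and -0.30 without control replicate 3 (adjusted p = 0.227), and it also passed with array weights (-0.60, adjusted p = 0.00402) and shrank to -0.16 with the 3' to 5' measure in the model (adjusted p = 0.585). The difference between the changes of these neighbours was not tested. ATG33 encodes a mitochondrial outer membrane protein known for mitophagy in stationary phase, and had 6.84, 7.04, 7.24 and 7.09 in mine drainage and 6.56, 5.78 and 6.03 in control. It rose by 0.93 on the log2 scale (1.91-fold, SE 0.18, limma adjusted p = 0.00593), the highest difference of the 34 genes, with control replicate 1 well above the other controls. ATG32, of the mitophagy receptor, had 6.22, 5.84, 6.22 and 6.28 in mine drainage and 5.82, 5.67 and 5.86 in control. Mine drainage replicate 2 lay with the controls and the other mine drainage arrays above them, and the difference was 0.36 (SE 0.12, limma adjusted p = 0.0521). ATG32 did not pass in the main fit, but it passed in 5 of the 17 alternatives tried. These were array weights, a further quantile normalization, a median shift, removal of a gene length trend and the fit without mine drainage replicate 2.

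ATG36, of the receptor for peroxisomes, had log2 signals of 6.16, 5.95, 6.09 and 5.98 in mine drainage and 5.65, 5.86 and 5.82 in control. The groups did not overlap, but they were 0.09 apart, and the difference of 0.26 (SE 0.10, limma adjusted p = 0.0686) did not pass. ATG20, of a sorting nexin used in the Cvt pathway, also showed no overlap and did not pass, with 7.11, 6.99, 6.94 and 7.13 in mine drainage and 7.15, 7.20 and 7.21 in control and a difference of -0.14 (SE 0.09, limma adjusted p = 0.247). The receptors of the endoplasmic reticulum had no call: ATG39, for the nuclear envelope, differed by -0.27 (SE 0.13, limma adjusted p = 0.153), and ATG40 by -0.01 (SE 0.13, limma adjusted p = 0.969), a sign that turned after a further quantile normalization, a median shift, with the replicate number as a block and in 4 of the 7 fits that leave out an array. ATG21, of a phosphoinositide-binding protein of the Cvt pathway, had 8.15, 8.34, 8.32 and 8.40 in mine drainage and 8.40, 8.61 and 8.58 in control and differed by -0.23 (SE 0.10, limma adjusted p = 0.11). The calls of ATG19 and ATG33 held without any single array, with adjusted p of at most 0.0272 and 0.0313.

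At the last step, in the vacuole, ATG22 rose and ATG15 did not pass. ATG22 encodes a vacuolar membrane protein of amino acid efflux, and its log2 signals were 7.11, 7.58, 7.59 and 7.44 in mine drainage and 7.03, 6.59 and 6.61 in control. Mine drainage replicate 1 and control replicate 1 lay 0.08 apart, the other arrays of the groups far from each other, and ATG22 rose by 0.69 on the log2 scale (1.61-fold, SE 0.15, limma adjusted p = 0.0102). ATG15, of the lipase that opens autophagic bodies, had 7.53, 6.99, 7.26 and 7.29 in mine drainage and 6.94, 7.04 and 6.90 in control and differed by 0.30 (SE 0.13, limma adjusted p = 0.0942). ATG41, also known as ICY2 and required for full autophagy on starvation, had 8.68, 9.40, 9.54 and 8.95 in mine drainage and 8.33, 7.91 and 8.40 in control and rose by 0.93 on the log2 scale (1.9-fold, SE 0.21, limma adjusted p = 0.0108). ATG26, a sterol glucosyltransferase gene whose role in the breakdown of peroxisomes is known from the yeast Komagataella and not from S. cerevisiae, differed by -0.22 (SE 0.12, limma adjusted p = 0.184). Without control replicate 2 the calls of ATG22 and ATG41 were lost (adjusted p = 0.0552 and 0.0561).

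The ATG genes that rose were shorter in the median than those that fell, as were the probesets on the whole array. From start to stop codon, the 5 ATG genes that rose had a median of 642 bases and the 9 that fell 1362, where all probesets that rose had 1020 and all that fell 1539. Across the 34 genes, length and log2 difference had a Spearman correlation of -0.126, and across the 5498 probesets -0.15. Genes are not independent replicates, and no p is given. With a trend with length removed from each array, 6 ATG genes were higher and 7 lower at the threshold, and ATG9 and ATG11 no longer passed.

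**Figure D3:**
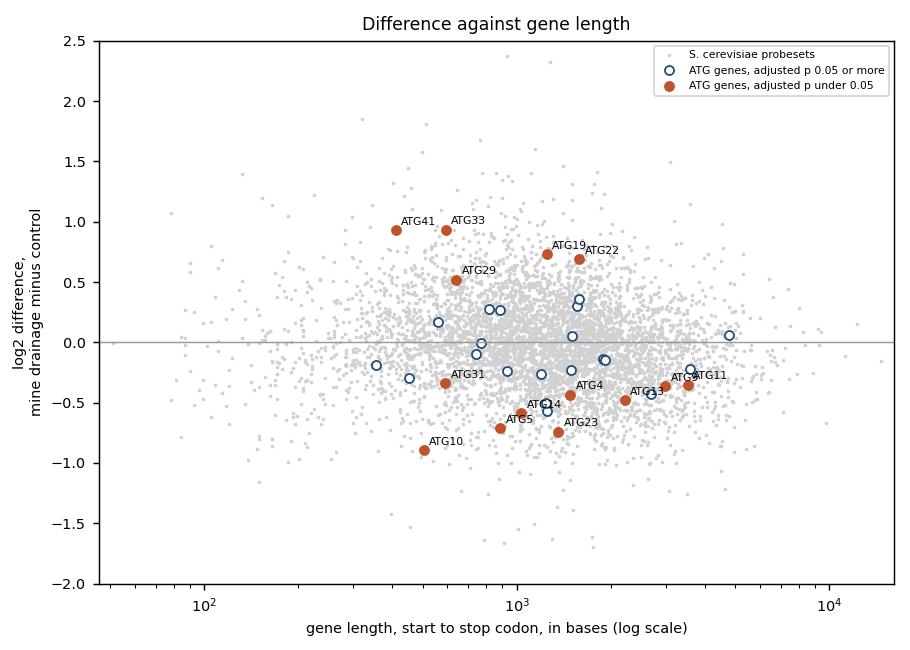
Log2 difference of mine drainage minus control against gene length in bases, on a log axis, for the 5498 S. cerevisiae probesets in grey and the 34 ATG genes. Filled points are the 14 that passed the threshold: among the short genes ATG41, ATG33 and ATG29 lie above 0 and ATG10 and ATG31 below it, and the long genes ATG9 and ATG11 lie below it.

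Of 24 measured genes of TORC1 and the nutrient kinases, which hold autophagy down or set it off, 7 rose and 2 fell, beside 14.5% and 17.1% of all probesets, with a median log2 difference of -0.05. Leaving out an array gave 4 to 6 higher and 0 to 3 lower. RIM15, of a kinase active when nutrients run out, rose by 0.57 on the log2 scale (1.48-fold, SE 0.11, limma adjusted p = 0.00621). BCY1, of the inhibitory subunit of protein kinase A, had 8.90 ± 0.07 in mine drainage and 8.44 ± 0.08 in control (SD) and rose by 0.47 on the log2 scale (1.38-fold, SE 0.09, limma adjusted p = 0.00684). SCH9, of a kinase that TORC1 activates, rose by 0.46 on the log2 scale (1.38-fold, SE 0.10, limma adjusted p = 0.0103), and SNF1, of the AMP-activated kinase of yeast, by 0.45 on the log2 scale (1.36-fold, SE 0.10, limma adjusted p = 0.0114). SIT4, of a phosphatase on the TORC1 route, rose by 0.38 on the log2 scale (1.31-fold, SE 0.10, limma adjusted p = 0.0181). Among the other called genes, TOR1 rose by 0.44 on the log2 scale (1.36-fold, SE 0.12, limma adjusted p = 0.0209). SNF4 rose by 0.35 on the log2 scale (1.27-fold, SE 0.11, limma adjusted p = 0.0439). TOR2 and IML1 fell, each by 0.30 on the log2 scale (SE 0.08 and 0.09, limma adjusted p = 0.0248 and 0.0353). Whether the calls of TOR1, SNF4, TOR2 and IML1 hold when an array is left out is not reported here. The calls of SNF1 and SIT4 were lost without control replicate 2 (and SIT4 without control replicate 3 or mine drainage replicate 4, adjusted p of up to 0.0589 and 0.0797), and with the 3' to 5' measure in the model no gene of the list rose, with SIT4 at 0.24 and SCH9 at 0.31.

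Of 12 genes for transcription regulators of ATG genes 3 fell and none rose, beside 17.1% and 14.5% of all probesets. The differences of 6 were positive and those of 6 negative, with a median log2 difference of -0.0021. GAT1, of a GATA factor that activates genes when good nitrogen sources are short, had 7.96 ± 0.16 in mine drainage and 8.69 ± 0.07 in control (SD) and fell by 0.73 on the log2 scale (1.66-fold, SE 0.11, limma adjusted p = 0.00297). DAL80, of a GATA factor that represses them, was on a dim and scattered probeset, with 2.97 ± 0.67 in mine drainage and 4.22 ± 0.26 in control (SD), and fell by 1.26 on the log2 scale (2.39-fold, SE 0.31, limma adjusted p = 0.0154). PHO23, of a subunit of a histone deacetylase complex, fell by 0.38 on the log2 scale (1.31-fold, SE 0.11, limma adjusted p = 0.0235). UME6 and RPH1, of repressors of ATG genes, differed by 0.27 (SE 0.12, limma adjusted p = 0.107) and 0.17 (SE 0.11, limma adjusted p = 0.271). Without control replicate 2 or 3 the calls of DAL80 and PHO23 were lost, and PHO23 also without mine drainage replicate 3 or 4 (adjusted p of up to 0.0725 and 0.107). Of the called genes without an ATG symbol that were picked by p, up to 5 from each list, GAT1 alone passed with the 3' to 5' measure in the model.

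Of 11 genes of cargo and vacuolar hydrolases 4 rose and none fell, beside 14.5% and 17.1% of all probesets. A positive difference was found for 10 of the 11, and for 46.1% of all probesets, and the median log2 difference was 0.22, beside -0.03. The exception was CPS1, with 7.91 ± 0.37 in mine drainage and 8.43 ± 0.12 in control (SD). It differed by -0.52 (SE 0.18, limma adjusted p = 0.0521), more in size than any rise of the list. In the alternatives tried, at most 1 gene of the list was lower at the threshold. APE1, the main cargo of the Cvt pathway, had 8.52 ± 0.20 in mine drainage and 8.13 ± 0.11 in control (SD) and rose by 0.39 on the log2 scale (1.31-fold, SE 0.12, limma adjusted p = 0.0392). APE4, another aminopeptidase carried by the same route, rose by 0.43 on the log2 scale (1.34-fold, SE 0.09, limma adjusted p = 0.00985). PEP4, the vacuolar protease that activates other hydrolases, rose by 0.42 on the log2 scale (1.34-fold, SE 0.11, limma adjusted p = 0.0186), and DAP2, a vacuolar dipeptidyl aminopeptidase, by 0.39 on the log2 scale (1.31-fold, SE 0.12, limma adjusted p = 0.0309). None of the 4 calls remained without control replicate 2, and the adjusted p reached 0.133 for APE1. PEP4 also missed without control replicate 3 or mine drainage replicate 3, APE1 also without these or mine drainage replicate 2, and DAP2 without any 1 control array or mine drainage replicate 3 or 4.

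For trafficking and fusion with the vacuole, 5 of 22 genes fell and 1 rose, beside 17.1% and 14.5% of all probesets, with a median log2 difference of -0.09. VAM6 and PEP5, of subunits of the HOPS tether that docks membranes at the vacuole, fell by 0.61 on the log2 scale (1.53-fold, SE 0.12, limma adjusted p = 0.00648) and 0.33 on the log2 scale (1.26-fold, SE 0.09, limma adjusted p = 0.0217). PEP3, of another HOPS subunit, fell by 0.44 on the log2 scale (1.36-fold, SE 0.14, limma adjusted p = 0.0392). The HOPS genes VPS16, VPS33 and VPS41 did not pass, at -0.03, -0.20 and -0.06 (adjusted p = 0.891, 0.162 and 0.749 from limma). VPS45, of a regulator of endosomal fusion, fell by 0.50 on the log2 scale (1.41-fold, SE 0.11, limma adjusted p = 0.0119) and VAM7, of a vacuolar SNARE protein, by 0.59 on the log2 scale (1.51-fold, SE 0.16, limma adjusted p = 0.0235). VAC8, of a vacuolar membrane protein with a part in the Cvt pathway, rose by 0.38 on the log2 scale (1.3-fold, SE 0.11, limma adjusted p = 0.0273). SNX4, also known as ATG24 and a partner of Atg20, differed by 0.19 (SE 0.10, limma adjusted p = 0.162). The VAM6 call held without any single array, and without control replicate 2 it was the sole one of the 5 falls left. VPS45 missed without control replicate 2, PEP5 and VAM7 without control replicate 2 or 3 or mine drainage replicate 3 or 4 (PEP5 also once a trend with gene length was removed, at -0.20), and VAC8 without any of these or control replicate 1 (adjusted p of up to 0.0996).

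**Figure D4:**
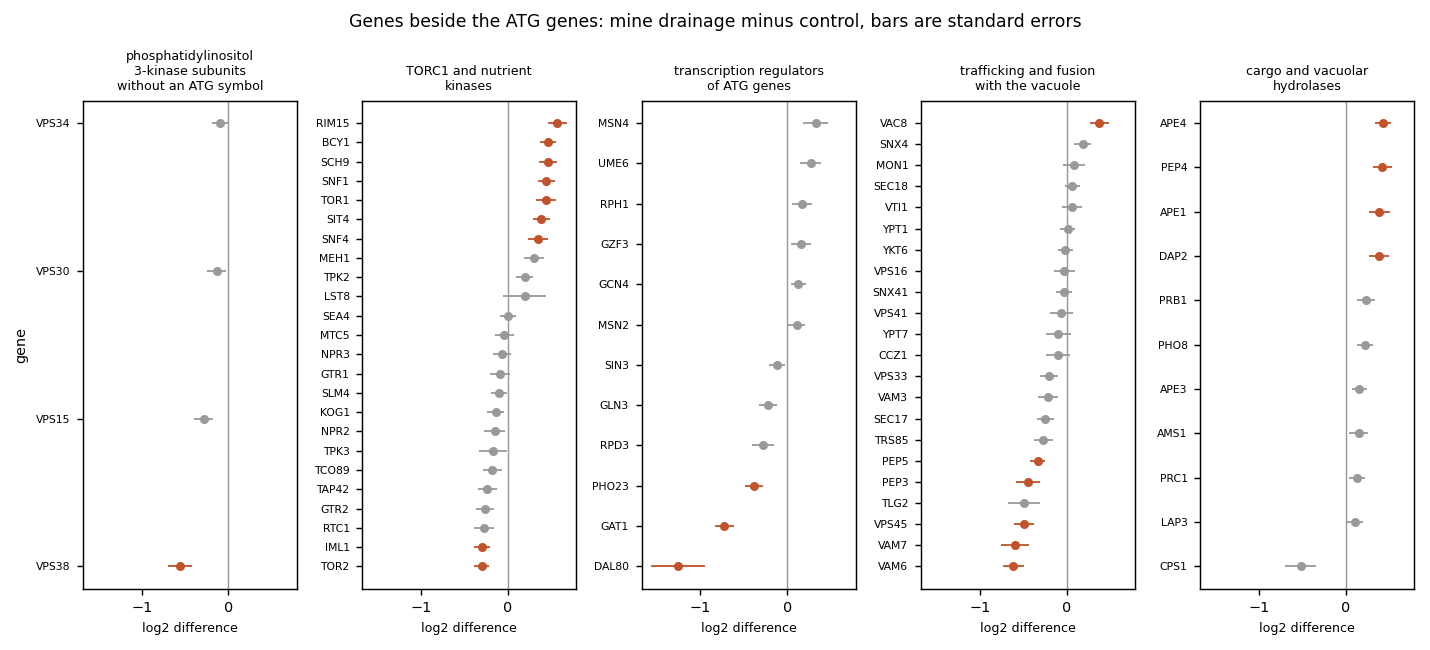
Log2 difference of mine drainage minus control, with its standard error from limma, for 5 lists of genes that act beside the ATG genes. Coloured points passed the threshold, which 14.5% of all probesets did higher and 17.1% lower. Among TORC1 and nutrient kinases 7 of 24 were higher and 2 lower, and among cargo and vacuolar hydrolases 4 of 11 and none. For trafficking and fusion 1 of 22 was higher and 5 lower. Among transcription regulators none of 12 was higher and 3 lower, and among phosphatidylinositol 3-kinase subunits none of 4 and 1.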

How the data were processed

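Total RNA of 7 cultures was amplified, labelled and hybridized to Affymetrix Yeast Genome 2.0 arrays. Deposited values were log2 signals, made by the authors with RMA in Partek Genomics Suite (background correction, quantile normalization over all probesets, summarization), as the submitters' processing notes and the methods name them. Quantile normalization sets all arrays to 1 distribution, so a shift of the whole RNA pool is not seen. Nothing was normalized again. Probesets were named through the platform's annotation and an R64 gene table, whose lengths run from start to stop codon, introns included. The files name no genome build, so no coordinates are given, and no sequences of these genes were used here. A total of 5498 probesets were tested with limma 3.58.1 in R 4.3.3 at 5 residual degrees of freedom, and figures were drawn with matplotlib 3.10.9. The sample titles gave condition and replicate number, and the labels call the cultures separate. Precision is limited by how few arrays there are.

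The members, the lists and the alternatives were chosen with earlier results of these data known. The text gives in full the members that passed or did not overlap, ATG1, ATG8, ATG9, ATG13 and ATG14, and the brightest and dimmest members, ATG8 and ATG10 (signals of different probesets give no order of transcript levels), and up to 5 called genes of each list, by p. Other named genes were chosen after their values were seen. Of the listed names, 5 were found as synonyms, and 1 is not reported here. Each result was recomputed with the methods' gene-by-gene test, with another prior for the spread (a trend, made robust), with arrays weighted by quality, after quantile normalization or a shift to equal medians within S. cerevisiae, without dim probesets, without shared probesets, with the replicate number as a block, with the 3' to 5' measure in the model, with a trend of signal on gene length removed, and without each array in turn. Running these on the lists as well was decided after the data were seen.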

Additional observations from a re-analysis of the deposited data

Results flagged for a closer look

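In 3 of 34 members a single mine drainage array stood apart from the other 3 by more than the critical gap of Dixon's test for 4 values, where chance flags about 1 in 20. ATG2 was highest on mine drainage replicate 2, at 6.96, with the others at 6.87 to 6.88 (gap 0.888 of the range). ATG3 was highest on mine drainage replicate 1, at 7.28, with the others at 6.91 to 6.97 (0.832 of the range). ATG32 was lowest on mine drainage replicate 2, at 5.84, with the others at 6.22 to 6.28 (0.864 of the range). Without that array the log2 difference of ATG3 was -0.32 (limma adjusted p = 0.0308), that of ATG32 was 0.46 (adjusted p = 0.0109) and that of ATG2 was 0.04 (adjusted p = 0.778), so ATG3 and ATG32 passed in fits that leave out the array that stood apart. These fits are 1 of 7 such fits for each gene, and neither gene passed in the main fit. With all arrays kept, ATG3 passed with array weights. ATG32 did so with array weights, after a further quantile normalization or a median shift, and with a trend with gene length removed.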

How the results depend on the processing

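The 14 ATG genes that passed kept their direction in all 17 alternatives, and ATG19 and ATG23 passed in each. Of the 34 genes, 32 kept their direction in all. The exceptions were ATG38 (main difference -0.09), at 0.0515 with array weights, 0.0704 after a further quantile normalization and from -0.244 to 0.107 when an array was left out, positive without mine drainage replicate 3, and ATG40 (-0.008), at 0.0745 after a further quantile normalization, 0.0169 after a median shift, 0.0678 with the replicate block and from -0.0981 to 0.0678 when an array was left out, positive without mine drainage replicate 3 or 4 or control replicate 1 or 2. None of these values passed. The count of ATG genes higher and lower, 5 and 9, was 1 and 3 with the methods' gene-by-gene test, 8 and 14 with array weights (a weight of 3.01 fell on control replicate 2), and 2 and 1 with the 3' to 5' measure in the model. A further quantile normalization gave 7 and 6 and a median shift 7 and 9, so the balance turned with the former. It also turned with the 3' to 5' measure in the model (2 higher, 1 lower) and without control replicate 3 (5 higher, 4 lower). Leaving out an array gave 2 to 7 higher and 2 to 10 lower, the lowest of both without control replicate 2 (2 and 2), with 5 and 5 without mine drainage replicate 4. The cause was not tested. Over all probesets, 795 higher and 942 lower became 362 and 368 with the methods' gene-by-gene test and 1258 and 1577 with array weights. Replicate numbers were not taken to pair the cultures. The deviations of same-numbered arrays correlated at -0.0651, -0.177 and 0.082, and those of other pairs at -0.181 to 0.298. These values are too few to decide whether cultures were paired. With the replicate block 5 ATG genes were higher and 6 lower. The calls of ATG4, ATG9, ATG11, ATG13 and ATG31 were lost with it (limma adjusted p of 0.0689 to 0.173), while ATG1 and ATG17 passed as lower. No member had a further probeset, so the alternative of other probesets gave no value.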
